A study of Mus musculus with 4 samples.

Results

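Apoe, Trem2, Tyrobp, Lpl, Abca1, Abcg1, Ch25h and Fabp5 are 8 genes of lipid transport, lipid sensing and sterol metabolism, taken from the 41862 gene columns of 4 single-cell RNA libraries of sorted mouse central nervous system cells. They were read by name in barcodes with at least 500 UMIs (unique molecular identifiers, each marking 1 captured RNA molecule) and at most 20% mitochondrial UMIs, by cell class and by library. The genes were picked with their measured levels in these libraries already known. Their levels are therefore given as a description, with counting intervals and no test.

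The libraries were made with the inDrops method, version 3, from C57BL6 mice carrying Aldh1l1CreERT2-TdTomato, in which a tamoxifen-inducible Cre under the Aldh1l1 promoter marks astrocytes with TdTomato. All 4 groups were sorted as TdTomato+ LAMP1+ cells and then split by surface TRAIL, the death ligand that Tnfsf10 encodes. Naive and EAE mice each gave a TRAIL- and a TRAIL+ library, 1 per group; 4 values in a row below follow the order naive TRAIL-, naive TRAIL+, then EAE TRAIL-, then EAE TRAIL+, called library order. EAE is experimental autoimmune encephalomyelitis, a model of multiple sclerosis, induced here with the myelin peptide MOG35-55 in complete Freund's adjuvant and sampled at the peak phase. The series names 3 naive and 3 EAE mice. The sources used here give neither how their cells were pooled into a library nor the age of the mice. With 1 library a group there was no replicate check, and every interval below covers counting error only.

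Apolipoprotein E is the main lipid carrier of the brain and is made largely by astrocytes. TREM2 is a receptor of microglia and macrophages that binds lipids and lipoproteins, APOE among them, and signals through the adaptor TYROBP. Lipoprotein lipase, encoded by Lpl, frees fatty acids from lipoproteins, FABP5 carries fatty acids inside cells, and ABCA1 and ABCG1 export cholesterol to lipoprotein particles. CH25H makes 25-hydroxycholesterol, an oxysterol that activates the liver X receptors (LXR), which in turn drive transcription of Abca1, Abcg1 and Apoe. Where myelin breaks down, phagocytes take up its cholesterol and must store or export it.

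The libraries listed 2803 to 3703 barcodes with 2856696 to 3984975 UMIs in all. Of 7899 barcodes that met the rule, 90 were called doublets and 7809 were kept, with a median per library of 946.5 to 1903 UMIs. Of the kept barcodes, 357 carried a name that also occurred in another library. Although all libraries were sorted and labelled as astrocytes, the astrocyte-like class, made of clusters 1 and 13, held 34, 132, 3 and 8 cells in library order. Cluster 13 gave 4, 7, 0 and 1 of them and had no astrocyte marker among its 10 leading genes. Both TRAIL+ libraries were mainly microglia-like (85.2% and 89.9% of kept barcodes), and the TRAIL- libraries were mainly endothelial-like and pericyte or smooth muscle-like, with 14.1% and 19.2% microglia-like cells. The 8 genes and the related lipid genes were left out of the clustering, so that no class was defined by them. Classes under 20 cells in a library are given as counts or left out.

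All 8 genes are protein-coding in the GRCm38 annotation. Apoe lies at 19696109 to 19699188 of chromosome 7 on the minus strand, Trem2 at 48346401 to 48354147 of chromosome 17 on the plus strand, and Tyrobp at 30413760 to 30417585 of chromosome 7 on the plus strand. Lpl spans 68880491 to 68907448 of chromosome 8 on the plus strand, Abca1 spans 53030787 to 53159895 of chromosome 4 on the minus strand, and Abcg1 spans 31057675 to 31117988 of chromosome 17 on the plus strand. Ch25h lies at 34473778 to 34475164 of chromosome 19 on the minus strand and Fabp5 at 10012548 to 10016607 of chromosome 3 on the plus strand. The lncRNA gene Gm26902 overlaps Ch25h on the opposite strand, and whether the counting used strand is unknown.

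The 150 bases before the start site are shown for the 4 genes whose upstream sequence matched in the RefSeq promoter table of build GRCm38.p6. Tyrobp, Lpl, Abcg1 and Fabp5 had no match there. The 4 shown carry contrasts described below: Apoe RNA varied between libraries and cells, and Trem2 differed by less than 2-fold between libraries in microglia-like cells. Abca1 encodes a cholesterol exporter, and Ch25h RNA was found mainly in endothelial-like cells. Each sequence reads 5′ to 3′ toward the start site, and capitals mark an E box, an LXR-type element, a CEBP motif, a cAMP response element, a PU.1 core and an AP-1 motif, while the GC and TATA boxes stay in lower case.
Apoe, chr7:19699189-19699338, - strand: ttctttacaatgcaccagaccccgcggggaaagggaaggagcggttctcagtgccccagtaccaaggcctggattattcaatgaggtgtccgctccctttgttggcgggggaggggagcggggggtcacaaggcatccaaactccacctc
Trem2, chr17:48346251-48346400, + strand: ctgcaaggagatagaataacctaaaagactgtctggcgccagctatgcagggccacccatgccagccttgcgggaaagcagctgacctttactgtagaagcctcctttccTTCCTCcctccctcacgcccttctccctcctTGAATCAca
Abca1, chr4:53159896-53160045, - strand: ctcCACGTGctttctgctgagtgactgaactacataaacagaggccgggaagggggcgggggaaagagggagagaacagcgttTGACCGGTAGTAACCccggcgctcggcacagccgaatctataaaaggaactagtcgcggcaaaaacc
Ch25h, chr19:34475149-34475298, - strand: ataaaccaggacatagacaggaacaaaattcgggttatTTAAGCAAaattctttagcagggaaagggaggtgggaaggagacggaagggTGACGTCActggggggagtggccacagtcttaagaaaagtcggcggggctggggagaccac

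The motifs were picked after the sequences had been seen and were searched on both strands. They were the cAMP response element TGACGTCA, the E box with the letters CACGTG, and the GC box, which reads GGGCGG. The TATA box was taken as TATAAA, and the core of PU.1 sites, a myeloid transcription factor, as GAGGAA. The motif of AP-1 factors was TGANTCA, that of CEBP factors was TTGCNNAA, and the LXR-type element of the direct repeat form was TGACCNNNNNTAACC. The Abca1 window held the LXR-type element 67 bases before the start, and 11 of 32851 windows of this length (0.0335%) held it. Its letters were set with the Abca1 window in view, so neither that match nor the low share is read as a result. The same window held an E box at 147 bases (4.3% of windows), a GC box at 97 bases (28.6%) and a TATA box at 29 bases (7.57%). The Ch25h window held the cAMP response element 61 bases before the start, found in 1.36% of windows, and a CEBP motif 112 bases before it (5.46% of windows). Distances count from the start in the RefSeq table. For Ch25h the window begins at 34475149, inside the gene as placed above (up to 34475164), so its bases nearest the start overlap the gene. In the Trem2 window the PU.1 core stood 40 bases and the AP-1 motif 9 bases before the start, found in 14.5% and 4.24% of windows. The printed Apoe window, before the outermost Apoe start, held none of these letters. Windows before other Apoe starts in the table did: that at 19698399 held a PU.1 core 132 bases before its start, and that at 19698622 held TATA boxes at 100 and 96 bases. Such matches describe the letters only.

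Apoe was highest in border macrophage-like cells, in an unnamed cluster and in astrocyte-like cells, and lowest in naive TRAIL- microglia-like cells and in pericyte or smooth muscle-like cells of both TRAIL- libraries. Levels are UMIs per 1000000 UMIs of the class in that library (CPM), with 95% Poisson counting intervals in parentheses. In naive TRAIL+, border macrophage-like cells held 23053 CPM (21988 to 24156) over 56 cells, and the unnamed cluster, led by Frzb, Fabp7, Npy and Foxd3, held 25138 CPM (23368 to 27006) over 20 cells. These 2 intervals overlapped, and each of these cells held at least 1 Apoe UMI after every cell had been thinned to 500 UMIs. Astrocyte-like cells followed with 11638 CPM (11153 to 12139) in naive TRAIL+ and 7680 CPM (7084 to 8312) in naive TRAIL-, a ratio of 1.52 (1.38 to 1.66).

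Monocyte-like cells were named from markers, and their origin was not measured. They held 4925 CPM of Apoe in naive TRAIL+ over 23 cells, 3163 CPM (3020 to 3311) in EAE TRAIL- over 218 cells and 9437 CPM (9130 to 9752) in EAE TRAIL+ over 134 cells. The EAE TRAIL+ level was 2.98-fold that of EAE TRAIL- (2.82 to 3.16), and 81.3% against 49.5% of these cells held an Apoe UMI at 500 UMIs, with median depths of 2747 and 2727 UMIs. The 15 microglia markers summed to 10759 CPM in the EAE TRAIL+ monocyte-like cells and to 2872 CPM in the EAE TRAIL- ones, and the 12 monocyte markers to 16079 and 23455 CPM. The part of these marker differences in the Apoe difference was not tested.

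Among cells of vessels, barriers and myelin, Apoe was higher in EAE TRAIL- than in naive TRAIL- in 3 classes. Endothelial-like cells held 519 CPM (477 to 563) against 983 CPM (901 to 1070), a ratio of 1.89 (1.68 to 2.13). Oligodendrocyte-like cells held 717 and 1415 CPM, a ratio of 1.97 (1.48 to 2.64), and choroid plexus-like cells held 1358 and 2120 CPM, a ratio of 1.56 (1.35 to 1.80). None of these 3 ratios reached 2-fold. In pericyte or smooth muscle-like cells the levels of 180 and 207 CPM had overlapping intervals, with a ratio of 1.15 (0.843 to 1.57). Fibroblast-like cells of naive TRAIL- held 2066 CPM over 28 cells.

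**Figure D1:**
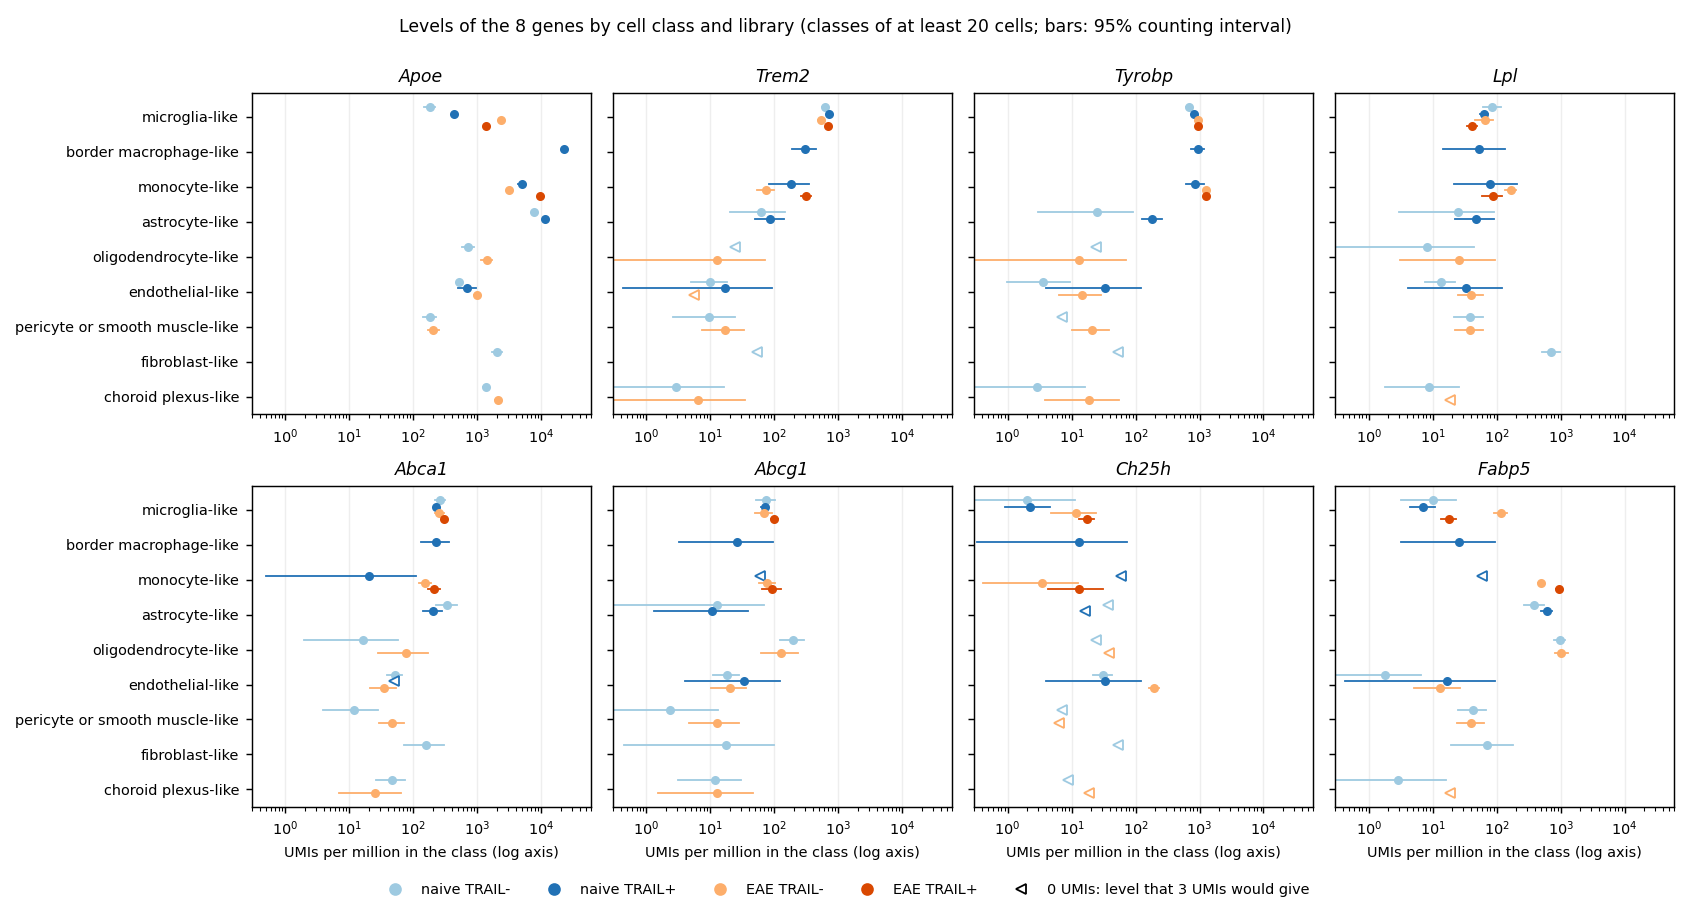
Levels of the 8 genes (horizontal log axis, CPM) in each named cell class of at least 20 cells, 1 point a library with its 95% counting interval. Open triangles stand at the level that 3 UMIs would give where no UMI was counted. The unnamed cluster is not drawn. Apoe spans from 180 CPM in naive TRAIL- microglia-like cells to 23053 CPM in naive TRAIL+ border macrophage-like cells, while Trem2 and Tyrobp are highest in the phagocyte classes.

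Because the classes differ in number between sorts, the Apoe UMIs of the libraries came from different cells. In naive TRAIL-, astrocyte-like cells held 26.2%, endothelial-like cells 24.3% and choroid plexus-like cells 20% of Apoe UMIs, against 3.84% in microglia-like cells. In naive TRAIL+, astrocyte-like cells held 33.7%, border macrophage-like cells 27.4% and microglia-like cells 21.3%. In the EAE libraries phagocytes held most of them: microglia-like cells 31.7% and 50.7%, and monocyte-like cells 40.6% and 39.9%, in TRAIL- and TRAIL+.

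**Figure D2:**
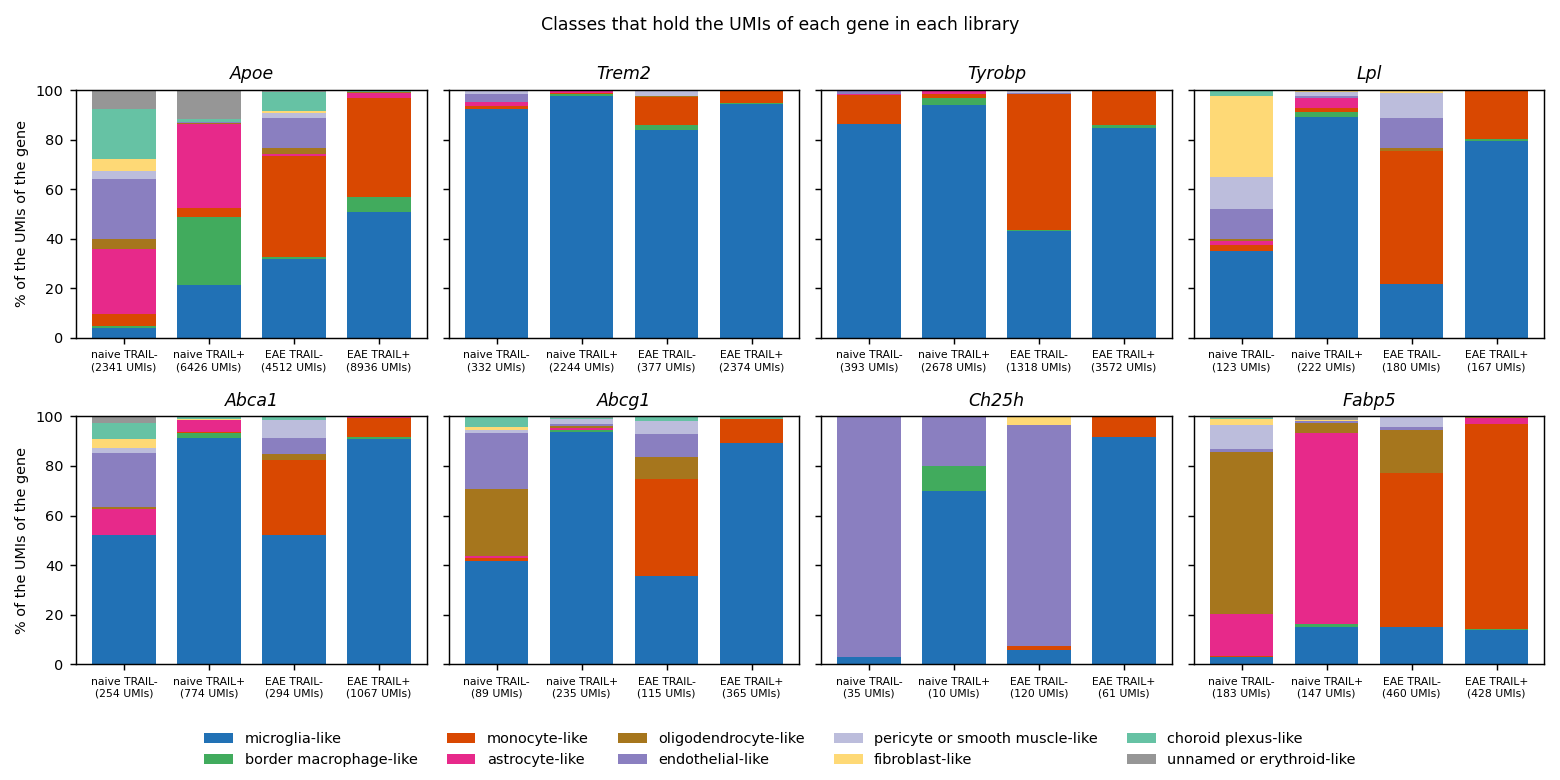
Share of each gene's UMIs (vertical axis, percent) that each cell class held in each library, with the gene's number of UMIs in the kept barcodes of that library under the bar. Microglia-like cells hold 84.1% to 97.5% of Trem2 UMIs in every library, while the classes that hold Apoe, Ch25h and Fabp5 differ between libraries.

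In microglia-like cells, Apoe was 3.18-fold higher in EAE TRAIL+ than in naive TRAIL+ (2.99 to 3.38) and 13.3-fold higher in EAE TRAIL- than in naive TRAIL- (10.7 to 16.6). The levels in library order were 180 CPM (145 to 221), 439 CPM (416 to 463), 2392 CPM (2270 to 2520) and 1394 CPM (1354 to 1435), over 313, 1892, 301 and 1624 cells. Both EAE libraries stood above both naive ones, and no intervals overlapped. The order of the sorts differed between the disease states: TRAIL+ was 2.44-fold TRAIL- in naive mice (1.97 to 3.05) and 0.583-fold in EAE (0.549 to 0.619). In naive TRAIL-, 5 cells held 45 of the 90 Apoe UMIs. Barcodes under 500 UMIs, which hold free RNA and small or damaged cells, held 976 CPM in naive TRAIL- and 2621 CPM in naive TRAIL+. In EAE they held 1372 and 2904 CPM. The part of free RNA in these contrasts was not tested. The naive contrast and the EAE contrast share no library, but the difference between them was not tested. Clusters 4, 5 and 7 made up this class, and different ones held most of it. Clusters 4 and 5, led by Siglech and P2ry13, held 232 and 79 of the naive TRAIL- cells, 1289 and 575 of the naive TRAIL+ cells, 82 and 41 of the EAE TRAIL- cells and 572 and 390 of the EAE TRAIL+ cells. Cluster 7, led by Crybb1, Rgs1, Tnf and Ccl3, held 2, 28, 178 and 662 cells.

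Of the 8 genes, those with a mean of at least 50 CPM over the 2 libraries were read at 2-fold. In EAE against naive TRAIL+, 6 of 8 met that level and Apoe alone was at least 2-fold higher, where 2.49% of 3208 genes were that much higher and 0.405% that much lower. In EAE against naive TRAIL-, 7 met it and Apoe and Fabp5 were at least 2-fold higher, against 8.21% of 3251 genes higher and 8.67% lower. In TRAIL+ against TRAIL-, Apoe alone of 6 was at least 2-fold higher in naive mice, against 0.346% of 3182 genes higher and 0.88% lower. In EAE, Fabp5 alone of 7 was at least 2-fold lower, against 0.744% of 3224 genes higher and 2.11% lower. Fabp5 no longer counted in the first of its contrasts with barcodes of at least 1000 UMIs, nor in either with classes by marker share, with a stricter microglial rule, or without barcodes that held a monocyte marker UMI. The members were picked with these levels known, so nothing is read from these counts.

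**Figure D3:**
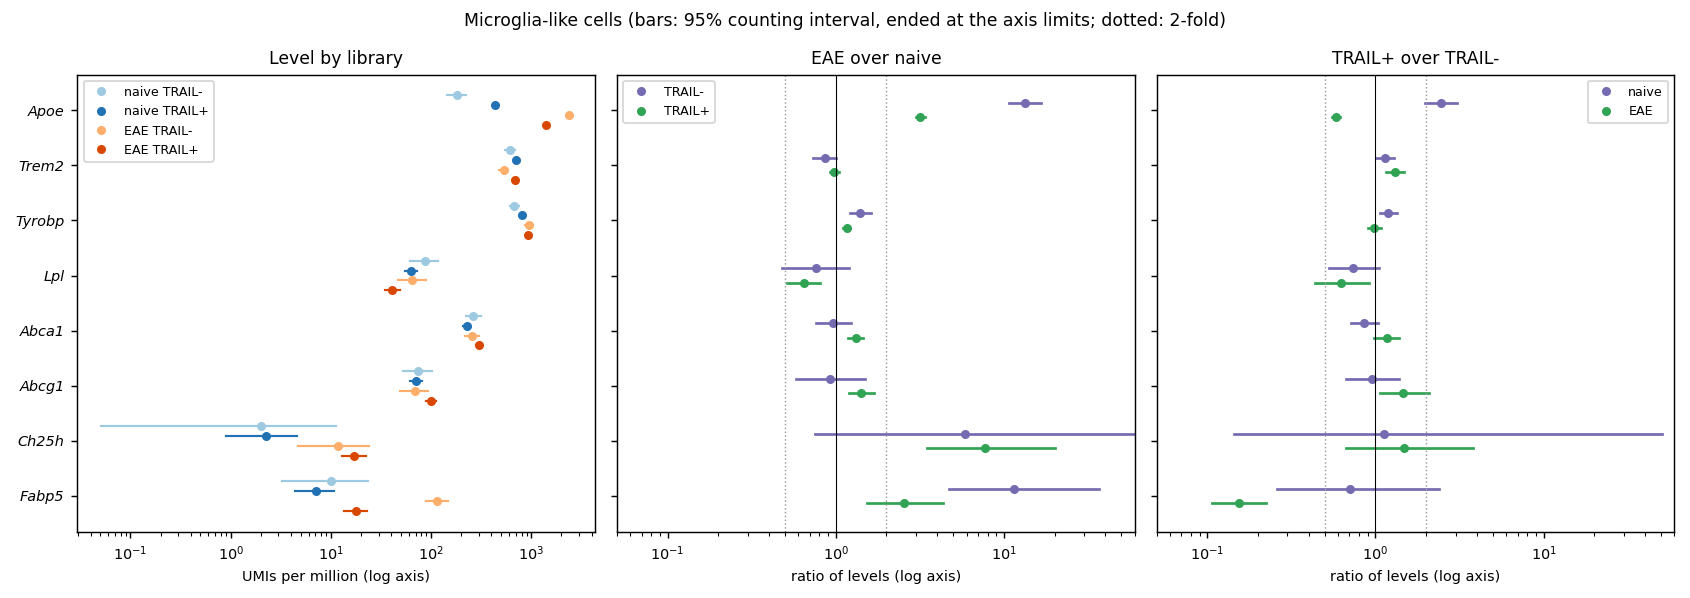
Levels of the 8 genes in microglia-like cells (left, CPM, log axis) and their ratios for EAE over naive within each sort (middle) and for TRAIL+ over TRAIL- within each disease state (right), with 95% counting intervals that end at the axis limits; dotted lines mark 2-fold. Apoe lies at 3.18 and 13.3 in the middle panel and on both sides of 1 in the right panel, while Trem2 stays between 0.863 and 1.30 in all 4 contrasts.

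Markers of some other cells were also higher in the EAE libraries. The 12 monocyte markers summed to 282, 451, 888 and 645 CPM in the microglia-like cells in library order, with 3, 1, 0 and 0 markers at 0. The 17 astrocyte markers summed to 292, 368, 355 and 391 CPM and the 11 border macrophage markers to 1021, 1012, 467 and 672 CPM. The 11 T or NK cell markers summed to 26, 33.7, 189 and 43.1 CPM, with 7, 3, 2 and 0 at 0, and the 12 dendritic cell markers to 690, 585, 964 and 661 CPM. Both were highest in EAE TRAIL-, as Apoe was, beside 31666 to 39765 CPM for the 15 microglia markers, and their part in the Apoe levels was not tested. Without the microglia-like barcodes that held any monocyte marker UMI, an alternative chosen after seeing the data, Apoe was 92.6, 224, 1093 and 614 CPM in the same order. The log2 ratios were then 1.45 for EAE against naive TRAIL+ and 3.56 for TRAIL-, and 1.28 and -0.83 for TRAIL+ against TRAIL- in naive and EAE, so that each kept its direction. With classes set by the highest share of marker UMIs in place of clusters, Apoe was 399, 819, 2746 and 1777 CPM.

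Free RNA sets a floor for shares of cells. At 500 UMIs, 5.43% of naive TRAIL- microglia-like cells (exact 95% interval 3.20 to 8.55) held an Apoe UMI. In the same library 6.39% (4.41 to 8.90) of pericyte or smooth muscle-like cells did, at median depths of 1541 and 791 UMIs. This class was taken as a background, and whether it makes Apoe was not tested. The microglia-like share was not above that of this class, nor above the 17.5% (15.4 to 19.9) of endothelial-like cells. The other 3 libraries, in order, stood at 9.83% (8.53 to 11.3), 27.2% (22.3 to 32.6) and 22.2% (20.2 to 24.3). In EAE TRAIL- the pericyte or smooth muscle-like share was 8.52% (6.13 to 11.5), below that of microglia-like cells, at median depths of 964.5 and 1904 UMIs. The TRAIL+ libraries had too few pericyte or smooth muscle-like cells for such a background (0 of 16 with an Apoe UMI in naive TRAIL+, exact upper limit 20.6%, and 1 of 4 in EAE TRAIL+). Of the 55 endothelial-like cells of naive TRAIL+, 25.5% (14.7 to 39) held one, above the microglia-like share. In EAE TRAIL- 30.8% (26.8 to 35.1) of endothelial-like cells did, an interval that overlapped the microglia-like one. The naive TRAIL+ and EAE TRAIL- shares are therefore not read as expression by that many microglia-like cells. The EAE TRAIL+ share has no background of its own library. Unthinned, 11.5%, 19.5%, 44.2% and 37.7% of microglia-like cells held an Apoe UMI in the 4 libraries.

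Apoe UMIs lay in part of the microglia-like cells, and in both EAE libraries and naive TRAIL+ this did not rest on a single cell. A Poisson count of the same mean at 500 UMIs would put an Apoe UMI in 20.4% (naive TRAIL+), 67.7% (EAE TRAIL-) and 49.0% (EAE TRAIL+) of cells, above the counted 9.83%, 27.2% and 22.2%. In the same 3 libraries, 18 (0.951%), 20 (6.64%) and 56 cells (3.45%) held 5 or more Apoe UMIs, where the Poisson count gives 0.008, 1.82 and 1.07 cells. These cells held 43.6%, 66.2% and 54.8% of the Apoe UMIs of their class, and the highest cell held 27, 39 and 51 of its 500 UMIs. In EAE TRAIL- and EAE TRAIL+ the 30 and 162 cells with most held 77.6% and 80.9% of Apoe UMIs. In naive TRAIL-, 1 cell of 313 held 5 or more, with 14 UMIs and 36.8% of the class's Apoe UMIs. That cell had 6173 CPM of microglia markers and 51440 CPM of MHC class II genes, so the spread in that library rests on 1 cell with more MHC class II than microglia marker UMIs.

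The variance of Apoe between cells at 500 UMIs was 6.32, 7.41, 11 and 11 times its mean in library order, where a count alike in all cells gives 1 and the ratio grows with a gene's level. Over 11 reference genes of microglia (among them Csf1r, C1qa, Cd74, Ccl3 and Actb) the same measure ran from 1.25 to 5.97, 1.19 to 5.02, 1.82 to 4.4 and 1.47 to 4.43, with the chemokine gene Ccl4 the highest in each library. Apoe was above the highest reference gene in all 4. Without barcodes that held a monocyte marker UMI it was 1.22, 3.51, 5.01 and 3.48, and cells with 5 or more Apoe UMIs numbered 0 of 227, 3 of 1168, 7 of 124 and 11 of 744. In naive TRAIL- it was 1.09 among barcodes of at least 1000 UMIs and 1.2 at no more than 10% mitochondrial UMIs.

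**Figure D4:**
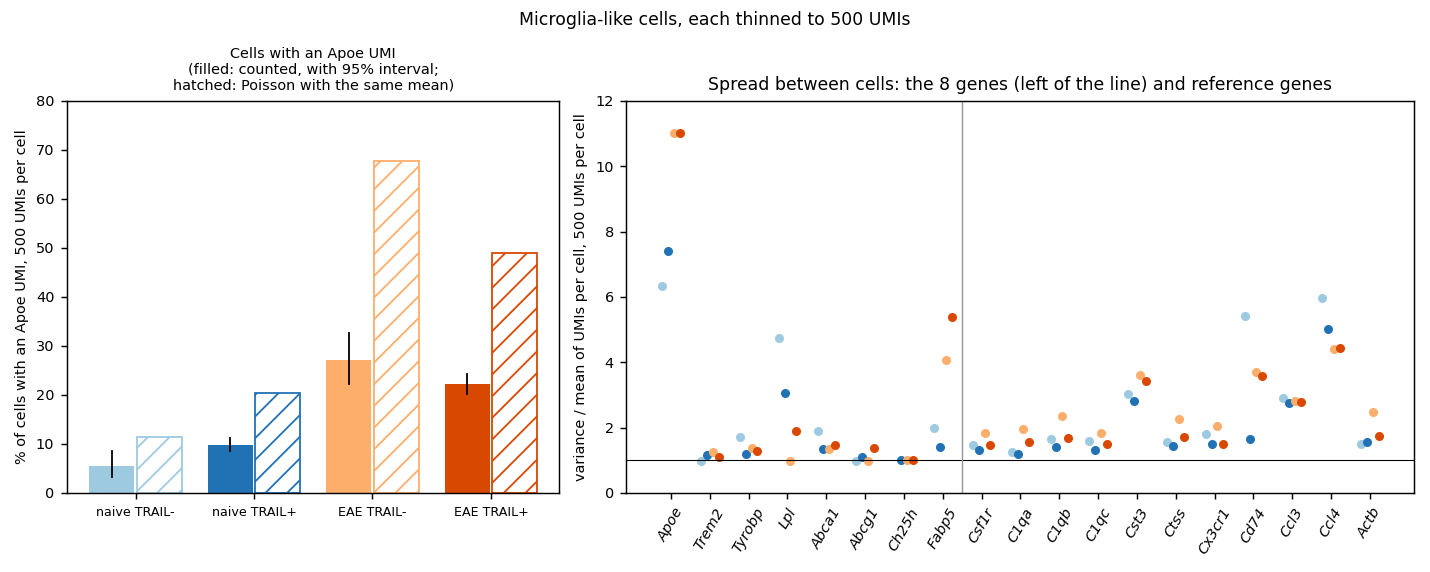
Left, the percentage of microglia-like cells with an Apoe UMI after thinning to 500 UMIs, counted (filled, exact 95% interval) and as a Poisson count of the same mean gives it (hatched). Right, variance over mean of UMIs per cell for the 8 genes and 11 reference genes, 1 point a library in the colours of the left panel; Apoe stands at 6.32 to 11, and Trem2 at 0.982 to 1.25, near the line at 1.

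The Apoe level also differed between the microglial clusters of one library, and Apoe UMIs were counted in each cluster. In EAE TRAIL+, clusters 4, 5 and 7 held 1424, 879 and 1720 CPM, with an Apoe UMI in 18.9%, 17.7% and 27.8% of their cells at 500 UMIs. In EAE TRAIL- they held 1577, 1763 and 2828 CPM, and in naive TRAIL+ 308, 461 and 4539 CPM, the last over 28 cells. Without the 1 cell that held most in each cluster, the levels in EAE TRAIL+ were 1095, 790 and 1586 CPM. They were 1153, 1099 and 2450 CPM in EAE TRAIL- and 289, 366 and 2986 CPM in naive TRAIL+. The order of clusters 4 and 5 in EAE TRAIL- so rested on single cells. Within clusters 4 and 5, which hold nearly all naive cells, EAE levels were thus above naive ones in both sorts (naive TRAIL-: 143 and 159 CPM). The naive levels of these clusters were below those of endothelial-like cells, 519 CPM in naive TRAIL- and 703 CPM in naive TRAIL+. The part of free RNA in them was not tested.

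Microglia-like cells rich in Apoe differed from those without it in other genes, measured at the same 500 UMIs with Apoe left out of the total. The disease-associated list has 16 genes, and its sums take every gene that had a gene column. Of these, 13 reached a mean of 10 CPM in the EAE against naive contrasts, none of them a member. Among them were Cst7, Itgax, Axl, Spp1 and the cathepsins. The list summed to 10274 CPM in EAE TRAIL- cells with no Apoe UMI and to 21893 CPM in cells with 5 or more. The same sums in EAE TRAIL+ were 11238 and 21750 CPM. In naive TRAIL+ the 2 sums were 9166 CPM (8964 to 9372) and 11348 CPM (9233 to 13802), and these intervals overlapped. MHC class II genes, which present antigen, summed to 6402 and 12481 CPM in EAE TRAIL-. In EAE TRAIL+ that pair was 4176 and 6240 CPM, against 373 and 1589 CPM in naive TRAIL+. Homeostatic genes were lower in the Apoe-rich cells of naive TRAIL+ (25458 and 14753 CPM) and EAE TRAIL+ (20632 and 14561 CPM), and close in EAE TRAIL- (15324 and 14936 CPM). Interferon-stimulated genes summed to 1900 and 3274 CPM (EAE TRAIL-) and to 1167 and 2847 CPM (EAE TRAIL+).

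Monocyte markers were higher in the Apoe-rich cells too, at 5901 against 342 CPM (naive TRAIL+), 2251 against 977 CPM (EAE TRAIL-), and 3503 against 515 CPM (EAE TRAIL+). Microglia markers stayed the larger sum in them, at 31434, 37238 and 35983 CPM against 40950, 30822 and 38101 CPM in cells without Apoe. Astrocyte markers were 388 and 681 CPM, 347 and 307 CPM, and 402 and 36.5 CPM, and border macrophage markers 1025 and 1362 CPM, 530 and 409 CPM, and 656 and 1022 CPM. The median full depth was 1550.5 and 1595.5, 1854 and 2064.5, and 1883 and 1974 UMIs. The part of the monocyte markers in the higher lists was not tested.

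**Figure D5:**
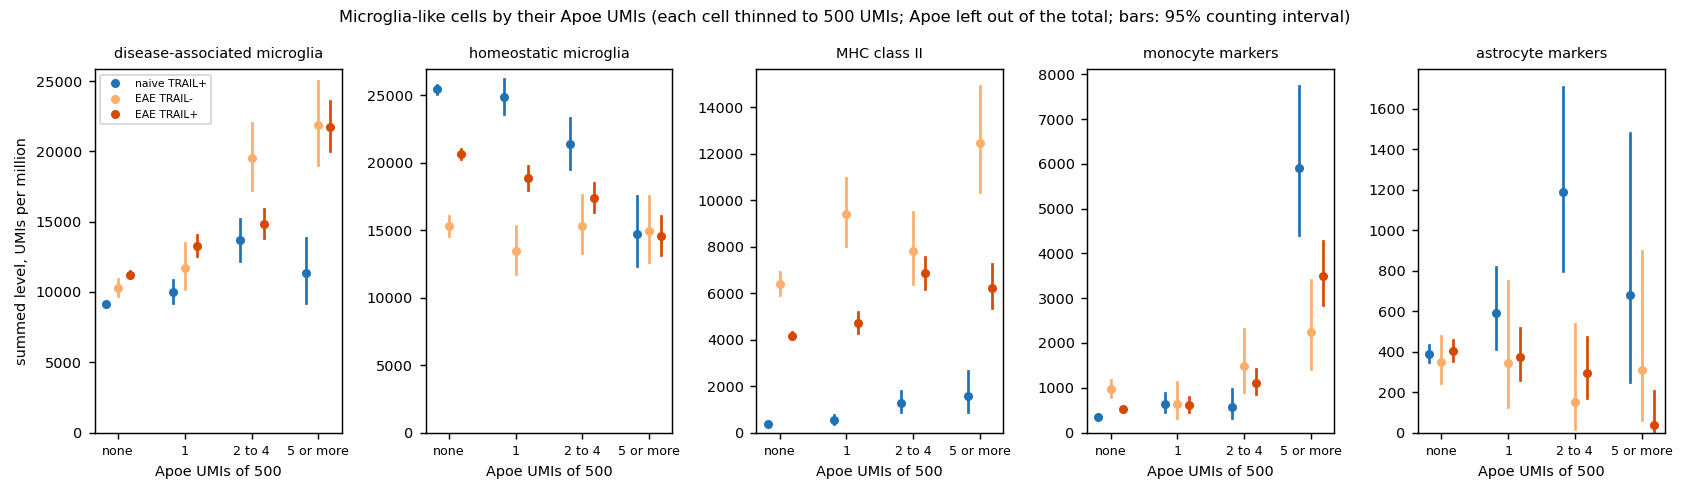
Summed level of 5 gene lists (vertical axes, CPM with Apoe left out, each panel with its own scale) in microglia-like cells grouped by their Apoe UMIs of 500 (horizontal axis), for the 3 libraries with more than 1 cell in the highest group; bars are 95% counting intervals. In both EAE libraries the disease-associated sum is 21893 and 21750 CPM at 5 or more Apoe UMIs, and monocyte markers are also highest there in all 3 libraries.

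Other members in the same cells, at full depth, followed Apoe unevenly. Tyrobp was 810 CPM (727 to 900) without and 1859 CPM (1462 to 2330) with 5 or more Apoe UMIs in EAE TRAIL-, and 888 CPM (852 to 926) and 1594 CPM (1375 to 1839) in EAE TRAIL+. In naive TRAIL+ it was 780 and 759 CPM. Trem2 was 465 CPM (403 to 535) and 768 CPM (522 to 1091) in EAE TRAIL-, and 684 CPM (652 to 717) and 806 CPM (652 to 985) in EAE TRAIL+, with overlapping intervals in both. The exporter Abca1 was higher in the Apoe-rich cells of naive TRAIL+ (594 against 220 CPM) and EAE TRAIL- (496 against 221 CPM), on 18 and 20 UMIs. In EAE TRAIL+ it was 229 CPM (151 to 333) against 292 CPM (271 to 314), and these intervals overlapped. Ch25h in EAE TRAIL+ was 11.5 and 161 CPM, the latter from 19 UMIs in 2 cells.

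Trem2, the lipid-sensing receptor, differed by less than 2-fold between any 2 libraries in microglia-like cells. It was 614 CPM (548 to 687), 702 CPM (673 to 732), 530 CPM (474 to 592) and 690 CPM (661 to 719) in library order. The EAE over naive ratio was 0.983 (0.926 to 1.04) in TRAIL+ and 0.863 (0.735 to 1.01) in TRAIL-, so both intervals included 1 and excluded a 2-fold difference. TRAIL+ was 1.14-fold TRAIL- in naive mice (1.01 to 1.29) and 1.30-fold in EAE (1.16 to 1.47). Microglia-like cells held 92.5%, 97.5%, 84.1% and 94.4% of Trem2 UMIs in library order. Between cells, Trem2 had a variance of 0.982, 1.15, 1.25 and 1.09 times its mean, near the 1 of a count alike in all of them. At its means of 0.262 to 0.371 UMIs per cell, this measure shows little of moderate differences. Trem2 did differ between clusters 4, 5 and 7 in EAE TRAIL+, at 786 CPM (728 to 847), 770 CPM (716 to 828) and 577 CPM (538 to 618). They held 694, 386 and 526 CPM in EAE TRAIL-, and 702, 702 and 704 CPM in naive TRAIL+.

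Outside microglia-like cells, Trem2 was 302 CPM (191 to 453) in border macrophage-like cells of naive TRAIL+. In monocyte-like cells it was 74.2 CPM (53.7 to 100) in EAE TRAIL- and 312 CPM (258 to 374) in EAE TRAIL+, a ratio of 4.20 (2.94 to 6.11), beside the higher microglia markers of the latter given above. Endothelial-like cells held 10 CPM in naive TRAIL- and no UMI among 493 cells in EAE TRAIL-, and pericyte or smooth muscle-like cells 9.49 and 16.9 CPM.

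Tyrobp, the signalling adaptor of TREM2 and of other receptors of myeloid cells, was present in all phagocyte classes. In microglia-like cells it was 678 CPM (608 to 755), 807 CPM (776 to 839), 950 CPM (874 to 1032) and 934 CPM (901 to 968) in library order. Both EAE libraries were above both naive ones, by 1.40-fold in TRAIL- (1.22 to 1.61) and 1.16-fold in TRAIL+ (1.10 to 1.22), short of 2-fold. Monocyte-like cells held 1248 CPM in EAE TRAIL- and 1282 CPM in EAE TRAIL+, with a ratio of 1.03 (0.914 to 1.15), unlike Trem2 in the same cells. Border macrophage-like cells of naive TRAIL+ held 944 CPM, and endothelial-like cells 3.64 and 14.7 CPM in the naive and EAE TRAIL- libraries. In EAE TRAIL-, microglia-like cells held 43.1% of Tyrobp UMIs, against 84.9% to 94.0% in the other 3 libraries.

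Lpl, which encodes lipoprotein lipase, was lower in EAE than in naive TRAIL+ microglia-like cells, at 41 CPM (34.3 to 48.5) against 63.5 CPM (55.0 to 73.0), a ratio of 0.645 (0.514 to 0.807). In TRAIL- the levels were 65.2 CPM (46.4 to 89.2) in EAE and 86.1 CPM (62.3 to 116) in naive, and the ratio of 0.758 (0.479 to 1.2) included 1. In EAE, TRAIL+ was 0.628-fold TRAIL- (0.436 to 0.921), but without barcodes that held a monocyte marker UMI the log2 ratio turned from -0.67 to 0.57. Few cells carried Lpl: in naive TRAIL-, 5 cells held 33 of its 43 UMIs, and in naive TRAIL+ 1 cell held 38 of 198. The 28 cells of cluster 7 in naive TRAIL+ held 841 CPM (609 to 1133), against 45.7 and 57.5 CPM in clusters 4 and 5, but that cell held 38 of the cluster's 43 UMIs, and the level without it was 102 CPM.

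Among whole classes of at least 20 cells, Lpl was highest in fibroblast-like cells of naive TRAIL-, at 706 CPM (505 to 962) over 28 cells. Monocyte-like cells held 167 CPM (136 to 204) in EAE TRAIL- and 87.3 CPM (60.1 to 123) in EAE TRAIL+, a ratio of 0.521 (0.340 to 0.781). In endothelial-like cells, on whose surface lipoprotein lipase acts, the TRAIL- libraries held 13.7 CPM (7.64 to 22.5) of Lpl when naive against 40.3 CPM (25.3 to 61.1) in EAE, 2.95-fold higher (1.46 to 6.12) on 15 and 22 UMIs.

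Abca1 and Abcg1, the cholesterol exporters, were modestly higher in EAE TRAIL+ than in naive TRAIL+ microglia-like cells. Abca1 was 226 CPM (210 to 244) against 298 CPM (280 to 318), a ratio of 1.32 (1.19 to 1.45). Abcg1 was 70.6 CPM (61.5 to 80.5) and 100 CPM (89.8 to 112), a ratio of 1.42 (1.2 to 1.70). In TRAIL- neither differed beyond counting error: Abca1 was 264 and 256 CPM (ratio 0.969, 0.763 to 1.23) and Abcg1 was 74.1 and 68.6 CPM (ratio 0.926, 0.579 to 1.49) in naive and EAE. TRAIL+ over TRAIL- in EAE was 1.46 (1.06 to 2.08) for Abcg1 and 1.17 (0.982 to 1.39) for Abca1.

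Abca1 was also present in astrocyte-like cells, at 338 CPM (223 to 491) in naive TRAIL- and 204 CPM (144 to 280) in naive TRAIL+, and in monocyte-like cells at 155 CPM in EAE TRAIL- and 214 CPM in EAE TRAIL+. In naive TRAIL- the intervals of astrocyte-like and microglia-like cells overlapped. In pericyte or smooth muscle-like cells the TRAIL- libraries held 11.9 CPM (3.85 to 27.7) when naive against 46.5 CPM (29.2 to 70.4) in EAE, a ratio of 3.92 (1.45 to 13.3) on 5 and 22 UMIs. Abcg1 was highest in oligodendrocyte-like cells, with 193 CPM (124 to 288) and 129 CPM (61.7 to 237) in the naive and EAE TRAIL- libraries. In naive TRAIL- that level was above the 74.1 CPM (52.1 to 102) of microglia-like cells with no overlap, and in EAE TRAIL- the intervals overlapped.

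Ch25h, the 25-hydroxycholesterol enzyme, was found mainly in endothelial-like cells of the TRAIL- libraries, where it was 6.34-fold higher in EAE (4.27 to 9.62). The level was 31 CPM (21.4 to 43.3), from 34 UMIs over 1147 cells, in the naive library, against 196 CPM (161 to 237), from 107 UMIs over 493 cells, in the EAE library. Among genes of at least 50 CPM in these cells, 2.12% of 3624 were higher by 2-fold or more and 2.57% lower. Endothelial-like cells with a Ch25h UMI were 1.48% and 6.69%, and at 500 UMIs 1.05% (0.542 to 1.82) and 4.67% (2.98 to 6.92), at median depths of 894 and 1039 UMIs. Pericyte or smooth muscle-like cells held none in either library, among 501 and 458 cells, with exact upper limits of 0.734% and 0.802%.

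The Ch25h difference held in both endothelial clusters: 11.9 CPM (2.46 to 34.8) against 267 CPM (180 to 381) in cluster 8, on 3 and 30 UMIs, and 36.6 CPM (24.9 to 52.0) against 178 CPM (140 to 222) in cluster 9. The 5 cells with most held 44.1% and 44.9% of the Ch25h UMIs. The overlapping lncRNA gene Gm26902 had 3 and 1 UMIs in these cells. Endothelial-like cells held 97.1% (naive) and 89.2% (EAE) of the Ch25h UMIs of the TRAIL- libraries. Their endothelial markers summed to 29695 and 25825 CPM, and their monocyte markers to 1546 and 2215 CPM.

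In microglia-like cells Ch25h was sparse, with 1, 7, 7 and 56 UMIs in library order. The TRAIL+ level was 2.25 CPM (0.903 to 4.63) when naive against 17.2 CPM (13 to 22.4) in EAE, a ratio of 7.68 (3.49 to 20). Of the 56 UMIs, 5 cells held 35, and cluster 7 held 45. In TRAIL- the ratio of 5.85 (0.752 to 264) included 1. Astrocyte-like and oligodendrocyte-like cells held no Ch25h UMI in any library.

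Fabp5, which encodes a fatty acid carrier, was highest in oligodendrocyte-like, monocyte-like and astrocyte-like cells. In the naive and EAE TRAIL- libraries, oligodendrocyte-like cells held 967 CPM (801 to 1156) and 1029 CPM (816 to 1281), a ratio of 1.07 (0.792 to 1.43). Astrocyte-like cells held 388 CPM (263 to 550) in naive TRAIL- and 607 CPM (500 to 730) in naive TRAIL+, a ratio of 1.57 (1.04 to 2.41). Monocyte-like cells held 492 CPM (436 to 552) in EAE TRAIL- and 939 CPM (844 to 1042) in EAE TRAIL+, a ratio of 1.91 (1.63 to 2.24), and none among the 23 cells of naive TRAIL+, where 3 UMIs would give 60.1 CPM. Fabp5 has processed pseudogenes, and how reads shared with them were counted is unknown.

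In microglia-like cells Fabp5 was 10 CPM (3.25 to 23.4), 7.06 CPM (4.42 to 10.7), 115 CPM (89.8 to 146) and 17.9 CPM (13.6 to 23.1) in library order. The EAE TRAIL- library stood apart, 11.5-fold above naive TRAIL- (4.71 to 36.6), while EAE TRAIL+ was 0.155-fold EAE TRAIL- (0.107 to 0.223). These UMIs lay in few cells: 5 of the 301 cells of EAE TRAIL- held 53 of 69, and 61 of the 69 lay in cluster 7. Without barcodes that held a monocyte marker UMI, 124 of 301 EAE TRAIL- cells and 744 of 1624 EAE TRAIL+ cells were left. The log2 ratio of TRAIL+ to TRAIL- in EAE then turned from -2.69 to 1.86, a value given without an interval. The direction thus depended on whether those barcodes were kept. Between cells the variance was 4.06 and 5.37 times the mean in EAE TRAIL- and EAE TRAIL+.

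Other genes of these pathways were counted in microglia-like cells where their mean reached 10 CPM, as at least 1.5-fold higher or lower in EAE. Over all genes so measured, 13.2% of 8586 were higher and 6.1% lower in TRAIL+, and 26.0% of 8789 higher and 23.2% lower in TRAIL-, with a median log2 ratio of 0.03 and -0.01. The disease-associated list had 8 of 13 genes higher in TRAIL+ and 10 of 13 in TRAIL-, none lower, with medians of 0.90 and 1.86. In contrast, of 12 homeostatic genes none was higher, and 2 and 7 were lower, with medians of -0.42 and -1.04. All 8 MHC class II genes were higher in both, with medians of 4.06 and 3.84, and 11 of 12 interferon-stimulated genes, with medians of 3.03 and 2.67.

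The TREM2 signalling list, genes of kinases, phosphatases and sheddases around the receptor, had 2 of 15 genes higher and none lower in TRAIL+, and 2 higher and 2 lower in TRAIL-, with medians of -0.06 and -0.14. The 2 higher in TRAIL+ were Treml2 (13.2 to 50.5 CPM, 3.84-fold) and Ms4a6d (74.4 to 148 CPM, 1.99-fold), and in TRAIL- Ms4a6d was 1.83-fold. Syk, the kinase that TYROBP recruits, was 90.8 and 73.6 CPM in naive and EAE TRAIL+, and 136 and 56.9 CPM in TRAIL-. Of the lipases and LPL partners, none of 8 was higher, and 0 and 2 were lower, with medians of 0.06 and -0.43. One of these, Mgll, which splits monoacylglycerols, was 0.754-fold in TRAIL+ and 0.490-fold in TRAIL-.

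Receptors of lipoproteins had 1 of 7 genes higher in TRAIL+ and 3 of 10 higher and 1 lower in TRAIL-, with medians of 0.14 and 0.13. Sorl1, a sorting receptor, was 2.13-fold in TRAIL+ and 1.00-fold in TRAIL-. Apolipoproteins other than Apoe were scarce, with 2 and 3 genes measured, 1 and 2 of them higher. LXR receptors and targets had 0 of 9 higher and 1 lower in TRAIL+, and 2 of 10 higher and 1 lower in TRAIL-, with medians of -0.23 and -0.12. The lower gene in both was Scd2, a fatty acid desaturase, at 0.605-fold and 0.348-fold.

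Enzymes of oxysterols and sterol transport had 1 of 8 genes higher and 1 lower in TRAIL+, and 3 of 9 higher and 1 lower in TRAIL-, with medians of 0.01 and -0.23. Tspo, an outer mitochondrial membrane protein that binds cholesterol, was the only gene of the lipid lists at least 2-fold apart in the same direction in both contrasts at 50 CPM or more. It was 26.0 and 119 CPM in naive and EAE TRAIL+ (4.6-fold, 3.61 to 5.92), and 8.01 and 169 CPM in TRAIL- (21.1-fold, 7.99 to 79.0). Fatty acid binding and lipid droplet genes had 2 of 7 higher and none lower in both, with medians of 0.43 and 0.01. Plin2, which coats lipid droplets, was 18.6 and 36.6 CPM in TRAIL+ (1.97-fold) and 8.01 and 73.6 CPM in TRAIL- (9.20-fold). Its naive TRAIL- level was near the 6.0 CPM that 3 UMIs would give there, so the size of the latter ratio is uncertain. Cholesterol synthesis had 1 of 9 higher and 1 lower in TRAIL+, and 4 of 10 higher and 3 lower in TRAIL-, with medians of 0.29 and 0.05.

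Across the 21 sums of a class in a library with at least 20 cells, the genes most like each member were ranked by Pearson r of log2(CPM + 10) over 10728 genes, as a description in which sums of 1 library share its depth and free RNA. Trem2 was followed by Cd37 (0.967), Cebpa (0.953) and C1qc (0.95), and its r with Tyrobp was 0.921. Ch25h was followed by Galnt15 (0.880), Vwf (0.865), the von Willebrand factor gene of endothelium, and S1pr4 (0.855). The genes most like Apoe were Slc7a11 (0.741), Foxred2 (0.737) and Pla2g7 (0.734), and its r with the other 7 members was between -0.083 and 0.384. Lpl was most like Egln3 (0.805), Myd88 (0.794) and Ugt2b35 (0.793), Abca1 like Wdfy2 (0.811), Fnip1 (0.788) and Gm47283 (0.780), and Fabp5 like Abtb2 (0.861), AI413582 (0.828) and Tnfaip6 (0.754).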

How the data were processed

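Single-cell RNA was measured in 4 libraries, 1 for each of naive and EAE by TRAIL- and TRAIL+. The deposited tables hold raw UMI counts per barcode and gene, unscaled, with listed barcodes at 100 UMIs or more. Bowtie and the genome GRCm38 are named per the submitters' processing notes, while the annotation stands as not given in the sources used here. Totals in library order were 3109387, 3967680, 2856696 and 3984975 counts, and the kept barcodes numbered 2214, 2221, 1567 and 1807.

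Barcodes with at least 500 UMIs and at most 20% mitochondrial UMIs were kept, and Scrublet in scanpy 1.11.5 (expected rate 5%) removed 45, 8, 30 and 7 as doublets, so that few were called in the TRAIL+ libraries. Counts scaled to 10000 were clustered (2000 variable genes, 30 components, 15 neighbours, Leiden resolution 1) without 114 genes, the 8 members and the lipid lists. Clusters were named from marker lists. The rule for names was widened after seeing the data so that microglial cluster 7 took a name. Each cluster's leading genes were ranked against the clusters whose profiles correlated with its own below 0.9. In total 26 barcodes stayed unnamed, and rebuilt names may differ from the study's.

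Counts were summed per class and library and divided by their total (CPM). Levels carry exact Poisson, shares exact Clopper-Pearson and ratios exact binomial 95% intervals (scipy 1.17.1), which cover counting error only and treat UMIs as independent. Cells are not replicates, so no p-value was computed. Fold rules were 2-fold at a mean of 50 CPM and, for lists, 1.5-fold at 10 CPM; a count of 0 stood at a floor of 3 UMIs per sum. Shares and the spread between cells were taken after thinning cells to 500 UMIs. Intervals and fold calls were run on simulated sums drawn as Poisson counts, the model behind the intervals. That run cannot show how the intervals hold for a gene such as Apoe, whose UMIs varied more between cells than Poisson counts do. The members, lists and rules were chosen with earlier results of these data known. Named genes are the members, the genes of each lipid list at least 2-fold apart the same way in both EAE contrasts (at most 3 a list), and the 3 genes most like 6 of the members; the other list genes named, the lists' examples, were chosen after their values were seen. Alternatives included TMM (edgeR 4.0.16) and DESeq2 1.42.0 size factors as scaling only. Gene positions are from GENCODE vM21. One reference gene is not reported here.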

Additional observations from a re-analysis of the deposited data

Results flagged for a closer look

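In microglia-like cells, Apoe differed between the TRAIL+ and TRAIL- sorts in opposite directions in the 2 disease states. The log2 ratio of TRAIL+ to TRAIL- was 1.28 in naive mice and -0.78 in EAE, and with 1 library a group this difference was not tested. In naive TRAIL-, 5 cells held 45 of the 90 Apoe UMIs of the class. The barcodes under 500 UMIs described next held more Apoe in TRAIL+ in both states.

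Apoe was also counted in the barcodes left out for having under 500 UMIs, which hold free RNA and small or damaged cells. There it was 976 CPM in naive TRAIL-, 2621 CPM in naive TRAIL+, 1372 CPM in EAE TRAIL- and 2904 CPM in EAE TRAIL+. In naive TRAIL- and both TRAIL+ libraries these levels were above those of microglia-like cells in the same library (180, 439 and 1394 CPM), and in EAE TRAIL- below (2392 CPM).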

How the results depend on the processing

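No paired analysis was possible because each group had 1 library and the labels give no replicate numbers; leaving out a replicate could not be run either. Of 316 alternative values of the members' log2 ratios in microglia-like cells, 284 lay within the counting interval of the reported ratio and 32 did not. The sign changed in 29 values, over 13 of the 32 ratios. In 27 of these the interval of the reported ratio included 1, so it had no clear direction: they were ratios of Lpl, Abca1, Abcg1, Ch25h, Fabp5 and Tyrobp, and none of Apoe or Trem2. In the other 2 it excluded 1: without barcodes with a monocyte marker UMI (chosen after seeing the data), TRAIL+ against TRAIL- in EAE was 0.57 for Lpl and 1.86 for Fabp5. The cause was not tested. Ranges over alternatives for Apoe were 1.12 to 1.72 (EAE against naive, TRAIL+), 2.78 to 4.06 (TRAIL-), 1.04 to 1.57 (TRAIL+ against TRAIL-, naive) and -1.02 to -0.52 (EAE). Of the members at least 2-fold apart, EAE against naive TRAIL- had 1 in place of 2 at 1000 UMIs or more, with classes by marker share, with at least 1% microglia markers and no astrocyte marker UMI, and without monocyte marker barcodes, and 3 by the mean over cells, and TRAIL+ against TRAIL- in EAE had 0 in place of 1 under the last 3. Genes at least 2-fold apart numbered 93, 549, 39 and 92 for EAE against naive TRAIL+, the same in TRAIL-, and TRAIL+ against TRAIL- in naive and EAE; at a mean of 10 CPM they were 420, 2305, 811 and 1022, and with no filter 9835, 10122, 16129 and 15239. The latter 2 were 83 and 147 with the stricter microglial rule and 92 and 349 without monocyte marker barcodes, and the last was 139 with TMM factors. Apoe levels (naive TRAIL-, naive TRAIL+, EAE TRAIL-, EAE TRAIL+) were 399, 819, 2746 and 1777 CPM with classes by marker share and 92.6, 224, 1093 and 614 CPM without monocyte marker barcodes. In the last 3 libraries they were 387, 2562 and 1262 CPM at 1000 UMIs or more and 500, 2716 and 1579 CPM with the stricter rule. At no more than 10% mitochondrial UMIs, naive and EAE TRAIL+ were at 413 and 1265 CPM, and EAE TRAIL+ was 1338 CPM as a mean over cells. The share of cells with an Apoe UMI was 10.8%, 14.9%, 39.0% and 29.5% at 1000 UMIs per cell; it was 11.4% and 24.4% in naive and EAE TRAIL+ by marker share, 20.2% in EAE TRAIL+ at 1000 UMIs or more, and 3.08%, 7.19% and 17.9% in naive TRAIL-, naive TRAIL+ and EAE TRAIL+ without monocyte marker barcodes. The Ch25h ratio in endothelial-like cells stayed between 2.51 and 2.71 (log2), and the Apoe and Trem2 ratios in monocyte-like cells between 1.52 and 1.84 and between 2.01 and 2.30, over alternatives chosen after seeing the data. Depth limits Ch25h and Fabp5 most, with under 70 UMIs in the microglia-like cells of each library.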
